A study of Mus musculus with 12 samples.

Results

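The fibrillar and microfibrillar collagens were followed in mouse liver as 10 listed genes, of 31870 gene symbols and unnamed transcripts on the array: Col1a1, Col1a2, Col3a1, Col5a1, Col5a2, Col5a3, Col6a1, Col6a2, Col6a3 and Col12a1. The rule lists the genes by name and sets no threshold on a measured value, but the list was drawn up with earlier results of these data known. All 10 were on the array with 1 probe each, and all 10 passed the filter on dim probes (well above background on at least 3 of 12 arrays). Col6a3 carried a transcript identifier in place of its symbol and was found through the probe's description. The 4 groups, with 3 mice and 3 arrays each, were FSAP-deficient livers after bile duct ligation (BDL), WT livers after BDL, FSAP-deficient sham livers and WT sham livers. FSAP, factor VII-activating protease, is a circulating serine protease encoded by Habp2. FSAP-/- mice and their FSAP+/+ (WT) littermates came from heterozygous parents on a BalbC background that had been backcrossed only up to the F3 generation, and were 20 to 30 weeks old. BDL stops the flow of bile and causes fibrosis that starts around the bile ducts, the sham operation left the duct open, and livers were frozen after 2 weeks. The labels give neither the sex of the mice nor the deleted part of Habp2. The question, by the title of the series, is whether loss of FSAP changes liver fibrosis in this model.

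Fibrillar collagens form the cables of scar tissue. Type I collagen is built from the products of Col1a1 and Col1a2, type III from Col3a1 alone, and type V, which lies inside type I fibrils and limits their diameter, from Col5a1 and Col5a2 with Col5a3 as a less common chain. Type VI collagen, from Col6a1, Col6a2 and Col6a3, assembles into beaded microfibrils around cells, and type XII, from Col12a1, is a fibril-associated collagen that sits on the surface of type I fibrils. In injured liver the main known sources are hepatic stellate cells and portal fibroblasts that turn into myofibroblasts, which after BDL gather around the bile ducts.

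The promoters of 3 chains that share mixed fibrils (types I, III and V) are shown as examples. Each is the 250 bases before the RefSeq gene start on GRCm38.p6, 5′ to 3′ on the gene's strand, and capitals mark every match, on either strand, to one of 4 motifs: CCAAT, the binding site of NF-Y, the core TATA sequence TATAAA, the GC box GGGCGG, or CAGACA, a SMAD-type sequence. Col1a2 lies at chr6:4505368-4505617, Col3a1 at chr1:45311288-45311537 and Col5a1 at chr2:27886175-27886424, all on the plus strand.
Col1a2: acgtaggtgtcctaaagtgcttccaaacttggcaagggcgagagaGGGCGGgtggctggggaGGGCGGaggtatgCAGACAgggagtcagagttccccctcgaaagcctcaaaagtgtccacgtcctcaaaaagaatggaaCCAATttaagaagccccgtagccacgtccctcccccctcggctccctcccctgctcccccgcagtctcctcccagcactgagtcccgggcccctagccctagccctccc
Col3a1: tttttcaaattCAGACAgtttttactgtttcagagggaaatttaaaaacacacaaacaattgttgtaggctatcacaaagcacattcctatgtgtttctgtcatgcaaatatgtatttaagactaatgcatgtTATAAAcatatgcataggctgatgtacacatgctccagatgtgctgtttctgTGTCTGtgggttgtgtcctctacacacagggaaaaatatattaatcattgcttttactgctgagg
Col5a1: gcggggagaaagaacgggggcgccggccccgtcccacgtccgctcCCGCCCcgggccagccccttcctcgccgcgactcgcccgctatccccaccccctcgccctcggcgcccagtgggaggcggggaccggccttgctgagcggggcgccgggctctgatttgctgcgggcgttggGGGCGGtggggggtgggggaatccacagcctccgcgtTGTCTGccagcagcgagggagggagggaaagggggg
GC content was 62.0% for Col1a2, 35.2% for Col3a1 and 76.4% for Col5a1. Upstream of the start, Col1a2 held 2 GC boxes, 1 CAGACA and 1 CCAAT. Col3a1 held CAGACA once on each strand and TATAAA once, and Col5a1 held the GC box once on each strand and CAGACA once. RefSeq promoters were at hand for 7 of the 10 genes, as 8 promoters since the table gives more than 1 start for Col6a2. In windows of 300 bases (250 before and 50 after the start), CAGACA was in 3 of these 8, against 21% of all 32851 promoters in the table. Those 3 are the promoters printed, so the printed set is not typical of the 8. Col6a1 and Col6a2, whose messages also moved together (r = 0.992 over the 12 arrays), held no CAGACA. Whether the motif bears on such shared movement was not tested. The GC box was in 5 of 8 against 35.7%, CCAAT in 2 of 8 against 37.4% and TATAAA in 1 of 8 against 13.6%. No motif overlapped a different one in the 3 promoters printed. A match is a string of letters and shows no binding.

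Values below are relative signals, the processed signal as a multiple of the array's own 75th percentile, and are not to be set against each other between genes because each probe has its own brightness. Tests used log2 relative signal in 1 limma model over all 12 arrays and 19536 genes, with Benjamini-Hochberg adjustment over all of them. "Rose" stands for an adjusted p below 0.05, and errors of log2 changes are standard errors (SE). The labels give 3 mice for each group, which limits the precision. In bulk liver RNA, more cells of a type and more RNA per cell cannot be told apart.

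On each array 54.5% to 62.3% of the spots cleared background, and the 75th percentile used for scaling was 475 to 1202 units of processed signal. Habp2 had relative signals of 0.00687 to 0.00811 in FSAP-deficient livers after BDL, against 31.3 to 35.4 in WT livers after BDL. That is at least 1178-fold lower without FSAP (adjusted p = 2.651e-05). In sham livers Habp2 had 0.00935, 0.00954 and 0.0913 in FSAP-deficient mice, against 41.5 to 45.5 in WT mice. The value of 0.0913, on replicate 1, was the only one of the 6 FSAP-deficient arrays that was well above background, and this array also stood apart on the second principal component. Y-linked genes gave signal on 3 arrays of FSAP-deficient livers, 2 after BDL (replicates 1 and 2) and 1 after sham (replicate 1), and on none of the 6 WT arrays. This signal was thus uneven between the genotypes, so sex, which the labels do not give, and genotype cannot be fully told apart. The 12 arrays lay on 4 slides. Slide 1 held the 3 WT sham arrays with replicate 1 of the WT BDL group, and slide 2 held replicates 2 and 3 of the WT BDL group with replicate 2 of the FSAP-deficient sham group. Slide 3 held the 3 FSAP-deficient BDL arrays with 1 FSAP-deficient sham array (replicate 3), and slide 4 held the remaining sham array (replicate 1).

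BDL raised most of the collagens in both genotypes. In FSAP-deficient livers 9 of 10 rose against sham, all but Col5a3, where 16.2% of all genes tested rose and 22.8% fell. In WT livers 8 of 10 rose, all but Col5a1 and Col5a3, where 15.2% of all genes rose and 17.7% fell. The median log2 change of the 10 was 3.67 in FSAP-deficient livers and 2.31 in WT livers, against medians of -0.16 and -0.03 over all genes tested. Col5a2 and Col12a1 were not well above background in sham livers and passed the filter through BDL arrays alone. That favoured a rise, so their place in the counts of BDL rises, here and below, is no separate support. With both set to their lower bounds, the medians of the 10 were 2.90 and 2.01. With normexp background correction (offset 50) in place of the processed signal they were 2.08 and 1.47. The 3 BDL arrays lay above the 3 sham arrays without overlap for 9 genes in FSAP-deficient livers, where 18.9% of all genes did so. They did so for 9 genes in WT livers too, where 24.2% of all genes did so.

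**Figure D1:**
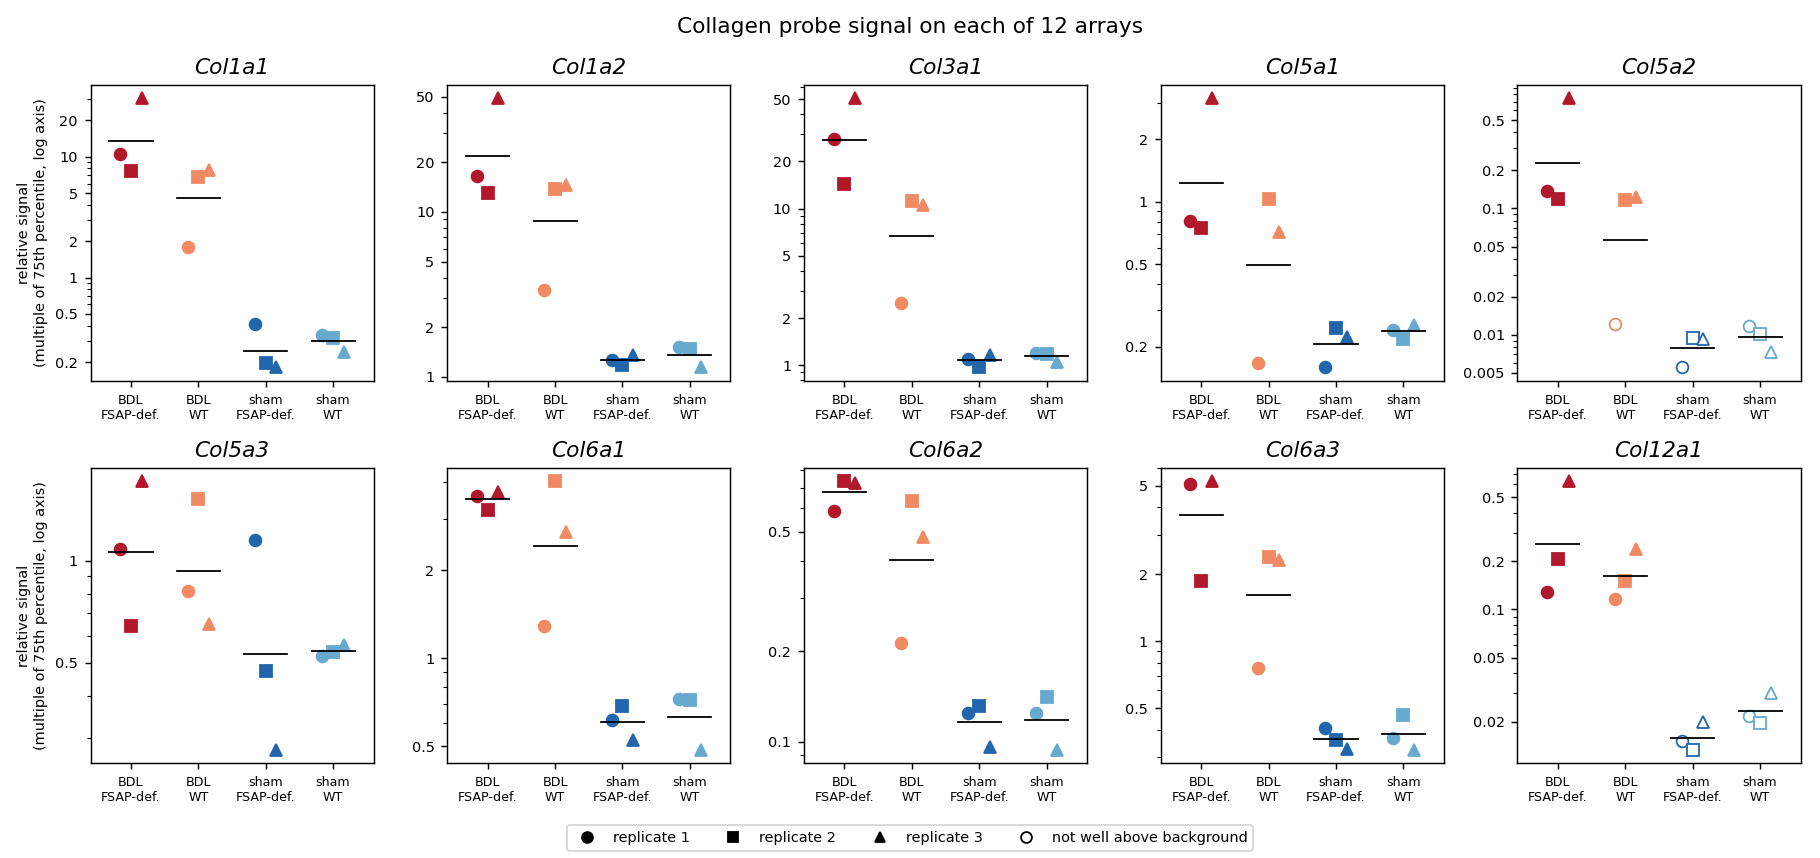
Relative signal (multiple of the array's 75th percentile, log axis) of the 10 collagen probes on each of the 12 arrays, by group; symbols mark replicates, open symbols are values not well above background and black lines are geometric means of 3 arrays. Replicate 1 of the WT BDL group is the lowest of its group for 9 genes, and replicate 3 of the FSAP-deficient BDL group is the highest of its group for 9 genes.

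Both type I chains rose in both genotypes, and Col1a1 had the highest fitted fold change of the 10 in each. Col1a1 (probe at chr11:94813115-94813174, mm9, the build of the array files) had relative signals of 10.6, 7.59 and 30.4 in FSAP-deficient livers after BDL, against 0.412, 0.197 and 0.181 in FSAP-deficient sham livers. That was a 55-fold rise (log2 5.78, SE 0.61, adjusted p = 7.259e-05). Every BDL array lay more than 10-fold above every sham array of that genotype. In WT livers Col1a1 had 1.81, 6.74 and 7.81 after BDL, against 0.337, 0.319 and 0.244 after sham, a 15.4-fold rise (log2 3.94, SE 0.61, adjusted p = 0.0008167). Replicate 1 was the low array, and still lay above all 3 sham arrays.

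Col1a2 (chr6:4490619-4490678) had 16.5, 13.1 and 48.8 in FSAP-deficient livers after BDL, against 1.26, 1.17 and 1.36 after sham, a 17.4-fold rise (log2 4.12, SE 0.57, adjusted p = 0.0003342). In WT livers it had 3.35, 13.8 and 14.6 after BDL, against 1.51, 1.47 and 1.14 after sham, a 6.42-fold rise (log2 2.68, SE 0.57, adjusted p = 0.004806). The groups did not overlap in either genotype. The log2 ratio of Col1a1 to Col1a2 signal, whose size depends on the probes, can be compared between arrays. It ran from -0.78 to -0.64 in FSAP-deficient livers after BDL and from -2.91 to -1.61 in FSAP-deficient sham livers. In WT livers it ran from -1.03 to -0.89 after BDL and from -2.22 to -2.17 after sham. Col1a1 thus gained on Col1a2 after BDL in both genotypes, with no overlap between the surgeries, and replicate 1 of the FSAP-deficient sham group lay nearest to the BDL arrays.

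Col3a1 (chr1:45405589-45405648), the sole chain of type III collagen, had 27.6, 14.5 and 50.5 in FSAP-deficient livers after BDL, against 1.10, 0.968 and 1.16 after sham. The rise was 25.3-fold (log2 4.66, SE 0.55, adjusted p = 0.0001322). WT livers gave 2.49, 11.1 and 10.6 after BDL, against 1.20, 1.19 and 1.05 after sham, a 5.79-fold rise (log2 2.54, SE 0.55, adjusted p = 0.00528). Sham levels were tightly grouped in both genotypes, while the BDL arrays of each genotype spread over more than 3-fold.

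Of the type V chains, Col5a2 rose in both genotypes, Col5a1 in FSAP-deficient livers and Col5a3 in neither. Col5a1 (chr2:27892892-27892951) had 0.806, 0.743 and 3.14 in FSAP-deficient livers after BDL, against 0.159, 0.246 and 0.222 after sham, a 6-fold rise (log2 2.58, SE 0.66, adjusted p = 0.01047). In WT livers it had 0.167, 1.03 and 0.713 after BDL, against 0.242, 0.219 and 0.255 after sham (log2 1.06, SE 0.66, adjusted p = 0.2464). Replicate 1 of the WT BDL group lay below all 3 sham arrays, and without it Col5a1 passed the test in WT mice (log2 1.85, adjusted p = 0.02597).

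Col5a2 (chr1:45431204-45431263) was not well above background on any sham array, with signals of 0.00553 to 0.0095 in FSAP-deficient and 0.0073 to 0.0117 in WT sham livers. It had 0.138, 0.118 and 0.743 in FSAP-deficient livers after BDL, at least 7.06-fold above sham (adjusted p = 0.001601). A bound sets the brighter group against the lowest signal well above background on the dim arrays, or the probe's own signal where that is higher. In WT mice the values were 0.117 and 0.124 on replicates 2 and 3 after BDL, and 0.0121 on replicate 1, where it was not well above background. That group mean was at least 1.72-fold above sham (adjusted p = 0.04685), and 13 of the alternative settings lost the call, with adjusted p from 0.05684 to 0.8437.

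Col5a3 (chr9:20574592-20574651) had 1.08, 0.641 and 1.72 in FSAP-deficient livers after BDL, against 1.16, 0.472 and 0.276 after sham (log2 1.00, SE 0.51, adjusted p = 0.1483). Replicate 1 of that sham group, on a slide of its own, lay within the range of the BDL arrays, and without it Col5a3 passed the test (log2 1.56, adjusted p = 0.02241). In WT livers it had 0.815, 1.53 and 0.653 after BDL, against 0.524, 0.539 and 0.565 after sham (log2 0.78, 95% interval -0.346 to 1.91, adjusted p = 0.2698).

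All 3 type VI chains rose in both genotypes. Col6a1 (chr10:76171538-76171597) had 3.60, 3.23 and 3.70 in FSAP-deficient livers after BDL, against 0.617, 0.689 and 0.526 after sham, a 5.78-fold rise (log2 2.53, SE 0.34, adjusted p = 0.0002929). WT livers gave 1.29, 4.05 and 2.70 after BDL, against 0.726, 0.719 and 0.486 after sham, a 3.82-fold rise (log2 1.93, SE 0.34, adjusted p = 0.001715). Replicate 3 of the FSAP-deficient BDL group, far above its group for the fibrillar chains, lay close to the other two for Col6a1.

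Col6a2 (chr10:76058931-76058990) had 0.585, 0.736 and 0.723 in FSAP-deficient livers after BDL, against 0.124, 0.131 and 0.096 after sham, a 5.84-fold rise (log2 2.55, SE 0.34, adjusted p = 0.0002724). In WT mice the values were 0.213, 0.629 and 0.478 after BDL, against 0.125, 0.141 and 0.0939 after sham, a 3.39-fold rise (log2 1.76, SE 0.34, adjusted p = 0.002794). The log2 ratio of Col6a1 to Col6a2 signal stayed between 2.13 and 2.69 over all 12 arrays, and its BDL and sham ranges overlapped in both genotypes.

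Col6a3 (chr1:92663663-92663722) had 5.10, 1.86 and 5.25 in FSAP-deficient livers after BDL, against 0.407, 0.361 and 0.329 after sham, a 10.1-fold rise (log2 3.34, SE 0.48, adjusted p = 0.0003859). WT livers gave 0.756, 2.40 and 2.32 after BDL, against 0.368, 0.467 and 0.324 after sham, a 4.23-fold rise (log2 2.08, SE 0.48, adjusted p = 0.006905). Replicate 2 was low among the FSAP-deficient BDL arrays for this gene.

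Col12a1 (chr9:79446895-79446954), the fibril-associated chain, was well above background on every BDL array and on no sham array, with signals of 0.0133 to 0.0198 in FSAP-deficient and 0.0195 to 0.0302 in WT sham livers. It had 0.127, 0.207 and 0.631 in FSAP-deficient livers after BDL, at least 7.85-fold above sham (adjusted p = 0.000172). In WT mice the values were 0.116, 0.149 and 0.238 after BDL, at least 4.94-fold above sham (adjusted p = 0.001758). Unlike Col5a2, Col12a1 was clearly detected on replicate 1 of the WT BDL group.

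**Figure D2:**
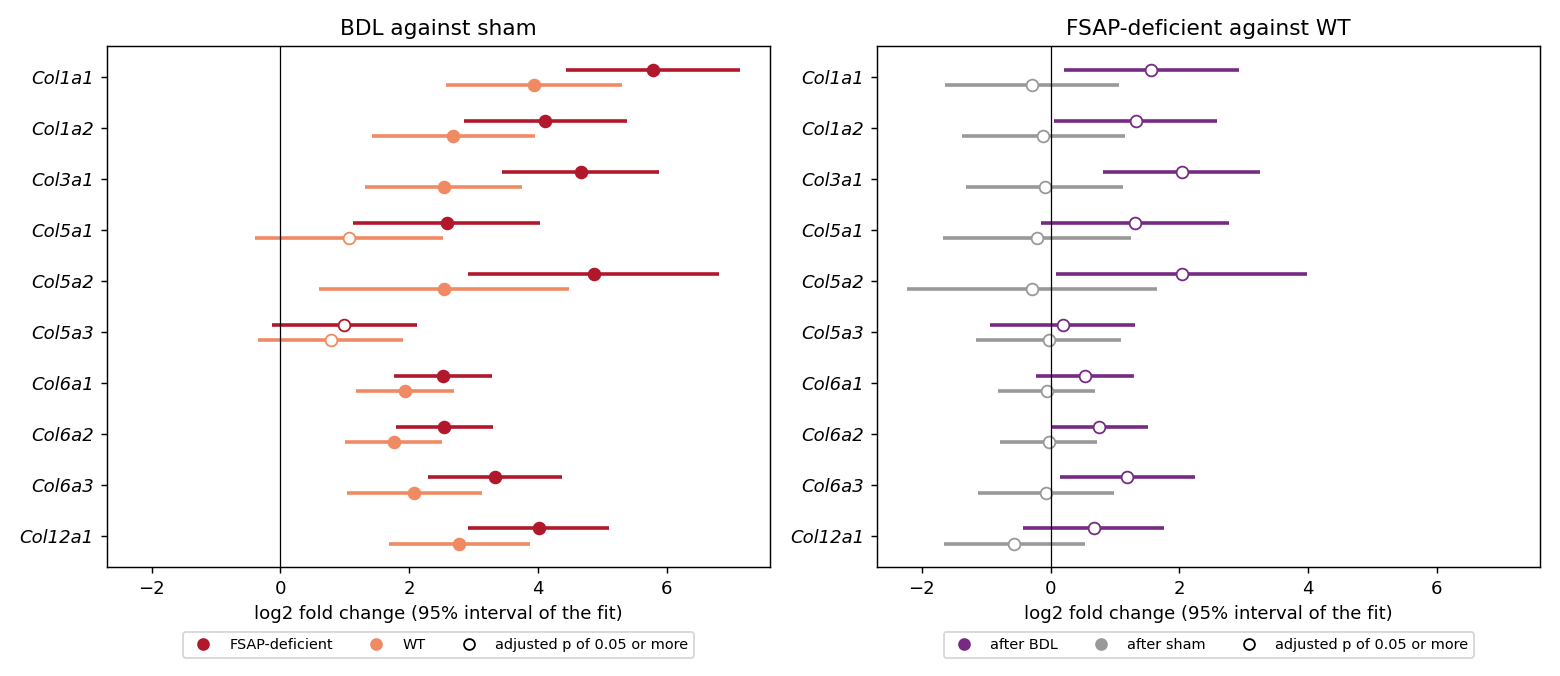
Log2 fold changes of the 10 collagens with their 95% intervals from the limma model, for BDL against sham in each genotype (left) and FSAP-deficient against WT after each surgery (right); filled points have an adjusted p below 0.05. On the left 9 points for FSAP-deficient and 8 for WT livers are filled, and on the right none is. The filled points include Col5a2 and Col12a1, which passed the filter on dim probes through BDL arrays alone.

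The slide bears on the WT result. With slide as a block, which for BDL amounts to comparing within a slide, 1 of 10 collagens was called in WT livers, Col1a1 (log2 2.60, adjusted p = 0.03388), and 9 of 10 were called in FSAP-deficient livers. Within slide 1 the WT comparison sets replicate 1 alone against the 3 sham arrays, and Col1a2 gave 1.29 (adjusted p = 0.2069) and Col3a1 1.12 (adjusted p = 0.2162). Slide 2, which held the higher WT BDL arrays, also held an FSAP-deficient sham array, on which Col1a1 read 0.197 and Col3a1 0.968, values like those of the other sham arrays. It is 1 array of the other genotype and surgery, and whether slide 2 raised the WT BDL signals was not tested. No WT sham array lay on slide 2, so for WT replicates 2 and 3 the slide and the surgery cannot be told apart within that genotype. In FSAP-deficient livers the comparison within a slide is thin too, as slide 3 sets the 3 BDL arrays against 1 sham array (replicate 3).

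No collagen passed the test between the genotypes. After BDL, 0 of 10 were called in limma, where 0.215% of all genes were called, and 6 of 10 had an unadjusted p below 0.05. No share of all genes at that unadjusted level is given here, and the collagens varied together, so the 6 are not separate results. All 10 log2 differences of FSAP-deficient against WT livers were positive, from 0.19 for Col5a3 to 2.04 for Col3a1 and Col5a2, with a median of 1.25 against -0.03 for all genes. The Col5a2 difference rests in part on replicate 1 of the WT BDL group, where it was not well above background, so that its size and place in that order are uncertain. Col3a1 came nearest, 4.1-fold higher without FSAP (log2 2.04, SE 0.55, 95% interval 0.82 to 3.25, adjusted p = 0.1562). It was the only collagen whose FSAP-deficient BDL arrays all lay above the WT BDL arrays, which 6.65% of all genes did. Col1a1 differed by 1.56 (interval 0.205 to 2.92, adjusted p = 0.32), Col1a2 by 1.32 (0.0575 to 2.59, adjusted p = 0.3705) and Col5a2 by 2.04 (0.0909 to 3.98, adjusted p = 0.37). Col6a1, at 0.54 (-0.222 to 1.29), and Col12a1, at 0.67 (-0.424 to 1.76), had smaller differences. A p above the threshold does not show that the genotypes were alike.

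The size of the genotype difference after BDL rested on a pair of arrays. The mean log2 level of the 10 collagens, each centred on its mean over 12 arrays, was 1.74, 1.40 and 2.91 in FSAP-deficient livers after BDL, against -0.29, 1.52 and 1.34 in WT livers after BDL. Replicate 1 of the WT BDL group was the lowest of its group for 9 of 10 collagens, and replicate 3 of the FSAP-deficient BDL group the highest for 9 of 10. Without that WT array the median difference of the 10 was 0.58, and without that FSAP-deficient array 0.73. The Col3a1 difference was 1.33 (adjusted p = 0.335) without the WT array and 1.59 (adjusted p = 0.2923) without the FSAP-deficient one. No slide held BDL arrays of both genotypes, so after BDL the slide and the genotype cannot be told apart directly. Y-linked signal was found in FSAP-deficient livers alone, so sex and genotype cannot be fully told apart either. With slide as a block, which links the genotypes only through single FSAP-deficient sham arrays, the median was 0.76. The Col3a1 difference was then 1.07 (adjusted p = 0.9001). Without the 3 arrays with Y-linked signal, which leaves replicate 3 alone in the FSAP-deficient BDL group and assumes that it varies like the other groups, the median was 2.23. Under each of these settings 0 of 10 collagens were called.

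**Figure D3:**
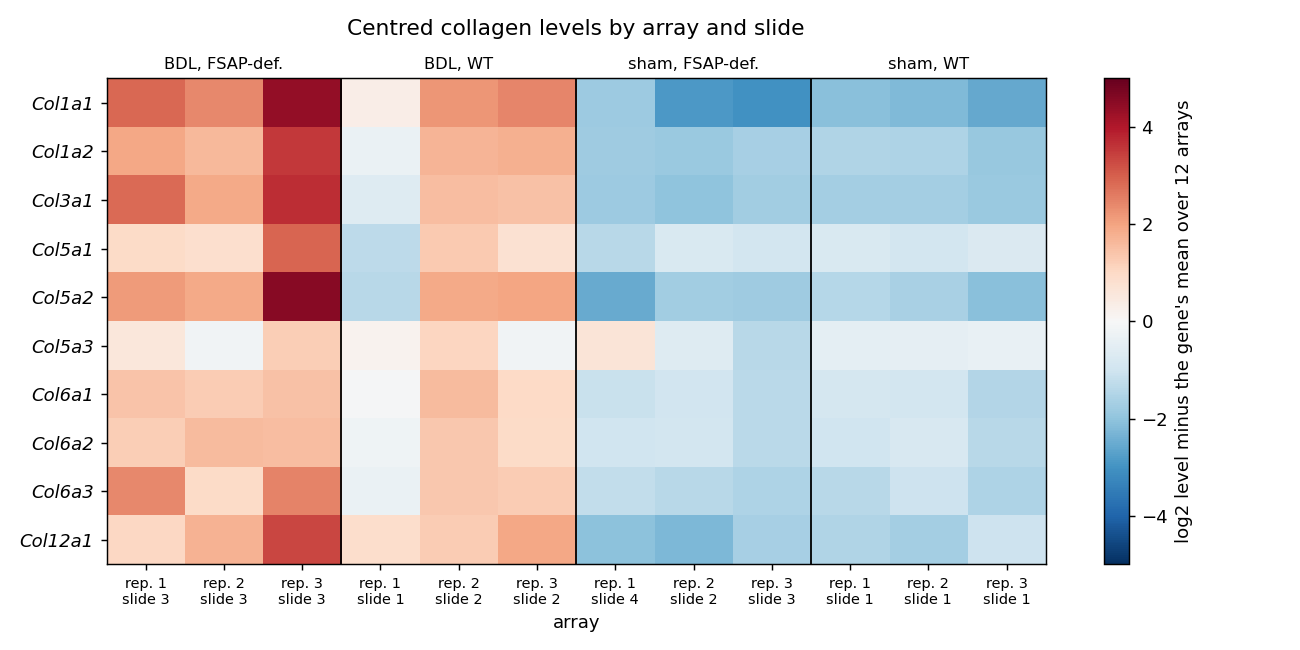
Log2 level of each collagen minus its mean over the 12 arrays, by array, with the slide of each array; red is above and blue below the gene's mean. Replicate 3 of the FSAP-deficient BDL group is the darkest red column, and replicate 1 of the WT BDL group, on slide 1, lies between the other BDL arrays and the sham arrays.

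In sham livers the genotypes lay close together. The log2 differences of FSAP-deficient against WT sham livers ran from -0.28 for Col1a1 to -0.03 for Col6a2 and Col5a3 among the 8 genes detected there. The sham values of Col5a2 and Col12a1 lay below background and give no difference. The median over all 10 was -0.10. None of the 10 was called in limma and 0 had an unadjusted p below 0.05, where 0.0154% of all genes were called, and for 0 of 10 were the groups apart without overlap, where 9.88% of all genes were apart upwards and 7.21% downwards. The intervals were wide, -1.64 to 1.07 for Col1a1 (difference -0.28) and -1.31 to 1.12 for Col3a1 (difference -0.09). The interaction, the BDL change in FSAP-deficient livers minus that in WT livers, was positive for all 10, with a median of 1.35. For Col5a2 and Col12a1 it takes in sham values below background, so its sign and size are uncertain for them. It was called for 0 of 10 in limma, where 0.0102% of all genes were, and for Col3a1 alone the unadjusted p was below 0.05 (log2 2.13, SE 0.78, adjusted p = 0.2719). With slide as a block, which here compares the groups through the arrays they share slides with, the median was -2.01 in sham livers and 2.61 for the interaction, with 0 of 10 called in either. The BDL comparisons of the genotypes have no arrays in common, but each shares its BDL arrays with the genotype comparison after BDL.

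Group means stood in 1 order for the 8 genes detected in sham livers, FSAP-deficient BDL above WT BDL above WT sham above FSAP-deficient sham. Col5a2 and Col12a1 kept the order of the BDL groups, and their sham values, below background, have none. The first pair and the last pair in that order did not pass the test for any gene, and Col5a1 and Col5a3 did not pass it for the middle pair either. Spread was larger after BDL. The SD of log2 levels had a median over the 10 genes of 0.959 in FSAP-deficient BDL livers and 0.266 in FSAP-deficient sham livers, and of 1.05 in WT BDL livers and 0.258 in WT sham livers. It was larger after BDL than after sham for 7 of 10 collagens in FSAP-deficient livers and 10 of 10 in WT livers. The limma model gives all groups 1 spread per gene.

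The collagens varied together across the 12 arrays, which share the surgery, the slides and the scaling. Over those arrays Pearson's r was 0.988 between Col1a1 and Col1a2, 0.99 between Col1a2 and Col3a1 and 0.992 between Col6a1 and Col6a2. After the 4 group means were removed, r was 0.917, 0.967 and 0.95. Col5a2 then followed Col1a2 (r = 0.979) and Col5a1 (r = 0.969) closely. Col12a1 followed Col6a1 hardly at all within groups (r = 0.0844), though r over all arrays was 0.906. Col5a3 was the loosest, with r of 0.614 to 0.719 against the other 9. Some of these genes are neighbours. On mm9 the Col3a1 and Col5a2 probes lie 25.55 kb apart on opposite strands of chromosome 1, and those of Col6a2 and Col6a1 lie 112.5 kb apart on 1 strand of chromosome 10.

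Of 15868 other genes with a symbol, the 10 whose levels followed the mean of the collagens most closely had r of 0.988 to 0.993 over the 12 arrays. They were Ehd2, Ecscr, Fkbp10, Fhod1, Adam15, Slc7a1, Fbn1, Fstl1, Tspan3 and Vim. Fkbp10 encodes a collagen chaperone and prolyl isomerase, Fbn1 the microfibril protein fibrillin-1 and Vim the mesenchymal filament protein vimentin. The log2 difference of BDL against sham for Fbn1 was 3.47 in FSAP-deficient livers and 2.10 in WT livers. These values describe genes ranked by their likeness to the collagens and are not independent of it.

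Genes that make and fold collagen moved in both directions. The counts of this and the following lists stand beside shares over all genes tested. Of those, 16.2% rose and 22.8% fell in FSAP-deficient livers, and 15.2% rose and 17.7% fell in WT livers. Of 19 tested genes for synthesis and folding, 8 rose and 1 fell after BDL in FSAP-deficient livers, and 8 rose and 2 fell in WT livers, with medians of 0.43 and 0.66. Fkbp10 rose by 3.12 in FSAP-deficient livers and by 1.99 in WT livers on the log2 scale. Serpinh1, the collagen chaperone HSP47, rose by 2.43 (adjusted p = 0.00104) and by 1.24 (adjusted p = 0.03929). Plod2, a lysyl hydroxylase that sets the cross-links of fibrillar collagen, was at least 7.75-fold higher in FSAP-deficient and at least 3.50-fold higher in WT livers after BDL. Plod2 was not well above background in sham livers and passed the filter through BDL arrays alone. That favoured a rise, so its place in the counts is no separate support. P3h4, a partner of lysyl hydroxylase in the endoplasmic reticulum, rose by 2.17 and by 1.36. The WT calls of Plod2 and Serpinh1 were lost in 12 alternative settings each, and that of P3h4 in 8.

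Among 10 tested genes of procollagen processing and fibril assembly, 6 rose and 2 fell in FSAP-deficient livers and 4 rose and 0 fell in WT livers. Adamts2, which cleaves the amino-terminal propeptide, rose by 2.10 in FSAP-deficient livers and by 2.06 in WT livers. Pcolce, which enhances removal of the carboxy-terminal propeptide, rose by 1.64 and by 1.11, and Sparc, a collagen-binding glycoprotein, by 2.29 and by 1.22. Postn, the matricellular protein periostin, rose by 2.18 in FSAP-deficient livers (adjusted p = 0.0236), and stood at 0.53 in WT livers (adjusted p = 0.5779). Alternative settings lost the call of Postn in FSAP-deficient livers 7 times, and the WT calls of Sparc 7 times and of Pcolce 5 times. Of 12 tested receptors and uptake genes, 6 rose in FSAP-deficient livers and 3 in WT livers, and none fell in either. Ddr1, a collagen-activated receptor tyrosine kinase, was at least 27.9-fold higher in FSAP-deficient livers, and 35.8-fold higher in WT livers. Mrc2, the receptor that takes up collagen fragments, was at least 7.04-fold and at least 3.26-fold higher. Like Plod2, Mrc2 passed the filter through BDL arrays alone, so its place in the counts is no separate support. Between the genotypes, 0 of these 41 tested genes were called after either surgery in limma, with 8 at an unadjusted p below 0.05 after BDL and 1 after sham. Those unadjusted counts have no share of all genes beside them here.

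Of 17 other fibrillar and fibril-associated collagens on the array, 9 passed the filter on dim probes. Over all genes tested, 16.2% rose in FSAP-deficient livers, and 15.2% rose and 17.7% fell in WT livers. In FSAP-deficient livers 3 rose, Col6a5 (at least 3.97-fold), Col16a1 (log2 2.33, adjusted p = 0.0001691) and Col11a1 (adjusted p = 0.04767, lost in 14 alternative settings, with a bound of at least 1.005-fold), and in WT livers Col6a5 and Col16a1 rose and Col20a1 fell by 1.41.

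Markers of cell types moved beside the collagens. Of 19 stellate cell, portal fibroblast and myofibroblast markers, 11 rose in FSAP-deficient livers and 5 in WT livers, and none fell. The shares of all genes tested that rose were 16.2% and 15.2%. Their summed relative signal was 76 to 117 in FSAP-deficient livers after BDL and 40.3 to 52.8 after sham. In WT livers it was 33, 78.2 and 85 after BDL, where replicate 1 lay below all sham arrays, and 50.6 to 54.7 after sham. Fbln2, a portal fibroblast marker, rose by 3.93 and by 2.44, and Lum by 2.70 and by 1.87. Acta2, the smooth muscle actin of myofibroblasts, rose by 3.60 in FSAP-deficient livers (adjusted p = 0.0005079), and stood at 0.72 in WT livers (adjusted p = 0.3378). Between the genotypes after BDL, Acta2 differed by 1.48 and was not called in limma (adjusted p = 0.2826). Another marker of this list, Tagln, rose in WT livers, a call lost in 3 alternative settings.

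Replicate 1 of the WT BDL group lay near the other WT BDL arrays for cholangiocyte and macrophage markers. It also did so for collagen receptors (11.4, against 11.1 and 11.4, and 7.76 to 8.1 after sham). For procollagen processing it had 251, against 267 and 216, and 165 to 202 after sham. It lay nearer to sham for the hepatocyte, cell cycle, and adipose and muscle lists. Summed cholangiocyte marker signal was 12.8, 15.9 and 13.8 in WT livers after BDL and 3.32 to 4.1 after sham, and summed macrophage marker signal was 114, 110 and 113 after BDL and 48.7 to 67.7 after sham. The hepatocyte sum of replicate 1, 3470, lay between 2170 and 2630 on the other WT BDL arrays and 3940 to 4330 after sham. Its cell cycle sum was 0.991, against 19.9 and 2.17 on the other WT BDL arrays and 0.749 to 1.85 after sham. Its adipose and muscle marker sum was 1.63, against 5.71 and 4.53 on the other WT BDL arrays and 1.23 to 1.5 after sham. The cholangiocyte sum of FSAP-deficient livers after BDL was 13.1, 30.2 and 45.5, highest on replicate 3, the array with the highest collagens, against 1.35 to 2.43 after sham. The macrophage sum there was 126 to 150, against 34.5 to 53.1 after sham, and the hepatocyte sum 1940 to 2800, against 4150 to 4430 after sham. Their part in the collagen differences was not tested.

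**Figure D4:**
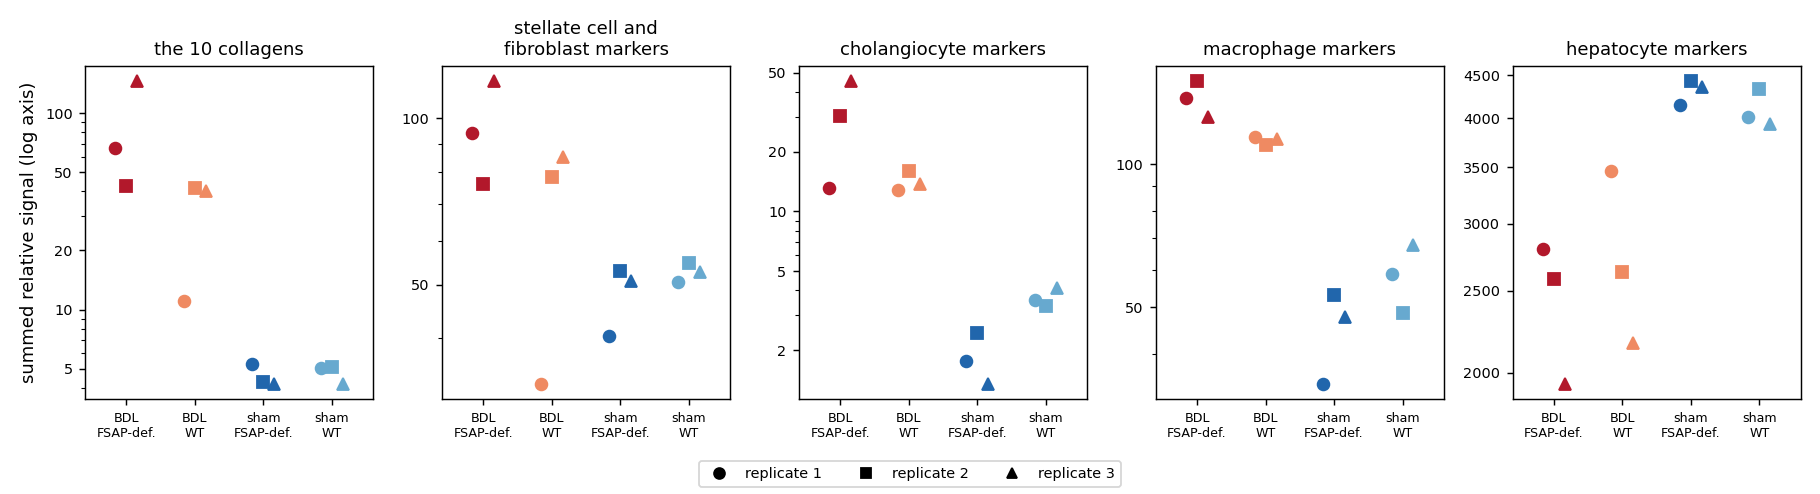
Summed relative signal (log axis) of the 10 collagens and of 4 marker lists on each array, by group, with symbols for replicates. Replicate 1 of the WT BDL group sits low for the collagens (11) and for the stellate cell and fibroblast markers (33) but beside the other WT BDL arrays for the cholangiocyte and macrophage markers.

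By count, 7 of 9 tested cholangiocyte markers rose and 1 fell in FSAP-deficient livers and 6 rose and 1 fell in WT livers, Krt7 by 4.21 and 3.60 and Krt19 by 3.52 and 3.30. Of 10 macrophage markers 9 and 8 rose, with Cd68 up by 3.06 and 1.97 and Adgre1 by 1.94 and 0.75, where the WT call of Adgre1 was lost in 10 alternative settings. Of 12 hepatocyte markers 9 fell in FSAP-deficient and 4 in WT livers. Cyp2e1 fell by 2.20 and by 2.66, Alb fell by 0.65 in FSAP-deficient livers (adjusted p = 0.03591, lost in 10 alternative settings) and stood at -0.46 in WT livers (adjusted p = 0.1321). Of 7 tested mesothelial markers 6 rose in FSAP-deficient and 4 in WT livers, with Msln up by 2.43 and 2.59. The mesothelial sum was 3.51 to 5.62 in FSAP-deficient livers after BDL and 0.785 to 1.19 after sham, and 2.09 to 4.18 in WT livers after BDL and 0.579 to 0.905 after sham. Of 10 endothelial markers 5 rose and 1 fell in FSAP-deficient livers and 4 rose and 1 fell in WT livers. Cdh5 rose by 0.83 in FSAP-deficient livers (0.18 in WT livers, not called), and Pecam1 by 0.46 in WT livers (0.32 in FSAP-deficient livers, not called), a call lost in 14 alternative settings. Their summed signal was 29.2 to 39.9 in FSAP-deficient livers after BDL and 39.5 to 44.5 after sham, and 40 to 41.8 in WT livers after BDL and 41.6 to 48 after sham. Of 9 tested cell cycle genes 8 rose in FSAP-deficient livers and 1 in WT livers. Mki67 rose by 4.43 in FSAP-deficient livers, and stood at 1.45 in WT livers (adjusted p = 0.1488). The summed cell cycle signal was 7.14 to 9.84 in FSAP-deficient livers after BDL and 0.657 to 0.859 after sham. In WT livers it was 0.991, 19.9 and 2.17 after BDL, so that the highest single array was a WT one, and 0.749 to 1.85 after sham. Most adipose and skeletal muscle markers, 8 of 10, including Adipoq, did not pass the filter, and Fabp4 rose by 1.60 and by 1.39, with the WT call lost in 10 alternative settings. The summed signal of that list was 3.31 to 5.13 in FSAP-deficient livers after BDL and 1.13 to 1.74 after sham, and 1.63 to 5.71 in WT livers after BDL and 1.23 to 1.5 after sham. It was low on the same WT BDL array as the collagens, but highest on another WT BDL array, where the collagen sum was highest on an FSAP-deficient one. In each group 6 to 9 of its 10 genes were below background on every array. In limma, no gene of the marker lists or the cell cycle list was called between the genotypes after either surgery, or for the interaction. A call in 1 genotype alone therefore does not show a difference between the genotypes. The part of these lists in the collagen differences was not tested.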

How the data were processed

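Liver RNA of 12 mice was measured on 12 one-colour arrays, with 100 ng of RNA labelled per sample and an RNA integrity number of at least 7.2, per the labels. The authors deposited 1 scanner file per array with linear spot intensity, background-subtracted within the array by Agilent Feature Extraction 10.5.1.1, per the file headers, and not scaled between arrays. The series matrix, also deposited by the authors, holds log2 values with column medians of 5.655 to 5.664 that correlated with the scanner values at 0.9989 or above. Genes were not centred in it, the method that scaled it is unknown here, and it served as an alternative. One FSAP-deficient sham array (replicate 1) had no gene names in its file and was joined through probe identifiers.

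Log2 processed signal was set to each array's 75th percentile, spots with an outlier mark, a flag given in the deposited files, were left out, and the brightest probe stood for a gene. Genes well above background on at least 3 arrays were tested with limma 3.58.1 in R 4.3.3 (4 group means, all 12 arrays, moderated two-sided tests, false discovery rate 0.05). The script was tested on simulated data. Of 33063 probes with a RefSeq accession, 26412 matched the GRCm38.p6 table. Exons under the probes and protein sequences were not used here. The collagens and gene lists were chosen with earlier results of these data known. Genes named beside the collagens were drawn from a set fixed by rule, and not all of that set are named. The set held, in each list and comparison, up to 4 called genes with the largest change. It also held the first 2 listed of each marker list, the 10 most like the collagen mean and Habp2. Replicate numbers showed no evident pairing of the mice, though the check cannot exclude one. Over 18 pairs of same-numbered arrays the correlation of deviations ran from -0.202 to 0.19, with 2 above 0.1. Alternatives varied the background correction, scaling, filter, probe choice, slide, arrays and covariates.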

Additional observations from a re-analysis of the deposited data

Results flagged for a closer look

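For 2 collagens every FSAP-deficient array lay above the WT mean after BDL and below the WT mean after sham. Col1a2 stood at 1.32 after BDL and -0.11 after sham (log2, FSAP-deficient against WT), and Col5a2 at 2.04 after BDL and -0.28 after sham. The test of the difference itself, the interaction in limma, did not pass, with adjusted p = 0.4743 for Col1a2 and 0.4503 for Col5a2. Col5a2 was not well above background on any sham array, so its sham difference has no order.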

How the results depend on the processing

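With 3 mice a group, the BDL calls in FSAP-deficient livers held for 9 collagens under every alternative run, and 0 collagens were called between genotypes or for the interaction under any. The 9 include Col5a2 and Col12a1, which passed the filter on dim probes through BDL arrays alone, so their calls are no separate support. With slide as a fixed block, and equally within the slide that held both surgeries, 1 collagen was called for BDL in WT livers, against 8. The slide block turned Col5a1 to -0.51 for BDL in WT livers and Col12a1 to -0.14 between genotypes after BDL. None of the differences that turned sign was called in the model over all 12 arrays, though Col5a1 was called for BDL in WT livers without replicate 1 of the WT BDL group (1.85, adjusted p = 0.02597). In sham livers normexp gave 0.069 for Col5a3, 0.060 for Col6a2 and 0.018 for Col12a1 between genotypes. Y-linked signal as a covariate gave 0.18 for Col1a2, 0.12 for Col3a1, 0.22 for Col5a1, 0.27 for Col5a2 and 0.020 for Col6a3 there, and -0.024 for Col5a3 after BDL. Leaving out 1 array at a time, the genotype difference in sham livers ran from -0.59 to 0.45 for Col5a3, -0.25 to 0.043 for Col6a1, -0.19 to 0.11 for Col6a2 and -0.19 to 0.077 for Col6a3. For Col5a3 the difference after BDL ran from -0.16 to 0.55 and the interaction from -0.26 to 0.77. The cause of these turns was not tested.

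The replicate block, although the numbers showed no evident pairing, left 9, 8 and 0 collagens called as before. It moved calls over all genes between genotypes after BDL to 11, against 42. Over all settings run, that number ranged from 2 to 135, and for the interaction from 0 to 365. The slide block gave 4192 calls for BDL in FSAP-deficient livers, against 7626, and 3303 in WT livers, against 6418. When the model held the sham arrays alone, Habp2 missed the threshold (adjusted p = 0.05962). Median scaling moved the median of all genes for BDL to -0.36 (FSAP-deficient) and -0.19 (WT), and that of the collagens to 3.47 and 2.15. Of calls of other named genes, 97 gene and setting pairs lost the threshold for BDL in FSAP-deficient livers and 199 in WT livers, and none turned sign.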
